A study of Mus musculus with 6 samples.

Results

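The strong distal accessible elements are the regions of the deposited ATAC-seq count matrix that lay more than 1 kb from either end of every protein-coding gene of the mm10 RefSeq annotation and had a mean CPM of at least 80 (CPM is a count divided by its library's total and scaled to a common total of 1000000, averaged over all 6 libraries). This rule selected 563 of 24605 regions. The rule used the mean over both groups and not the difference between them, so the strength of the elements is a description and carries no test. The study compared cytotoxic CD8+ T cells, which kill infected and malignant cells, cultured with or without palmitate, a saturated fatty acid. Per the labels the cells were taken from the spleen, lymph nodes and pancreas of wild-type mice, and 50000 cells purified by FACS entered each library. There were 3 control libraries and 3 libraries from cells given 100 µM palmitate in T cell medium, all at 48 h. The treatment text of the labels names palmitate for every sample, so the groups were taken from the titles, and what the control cultures received in its place is not given there. Whether replicates were separate mice or cultures is not stated, so each p-value reflects the spread between libraries alone, and that spread may be technical.

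In ATAC-seq the Tn5 transposase inserts sequencing adapters into accessible DNA, and the number of reads over a region rises with the openness of its chromatin. Away from gene ends, open regions in T cells include enhancers, which are bound by transcription factors and can act on a gene from a distance, and insulators. They also include internal promoters, from which shorter isoforms or long noncoding RNAs (lncRNAs) start, and the compact promoters of small RNA genes. CpG-rich promoters stay open in most cell types.

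The label "distal" held for the ends of protein-coding genes with coordinates in the gene table, but not for the ends of lncRNA genes or the starts of transcripts. Of the 563 elements, 264 (46.9%) overlapped a RefSeq start window, the stretch from 250 bases before to 50 bases after an annotated transcript start. The start of a protein-coding transcript lay in 214 of them, all inside a gene, and the start of an lncRNA in the other 50. Of those 50, the element nearest to Tada2b also held the start of Grpel1, which has no biotype or coordinates in the gene table. Grpel1 therefore did not enter the distances or the classing of starts. If Grpel1 is protein-coding, this element is not distal by the rule and does not belong with the lncRNA starts. Among 14623 weaker distal regions, 1052 held a start window, and among 2830 equally strong regions within 1 kb of a gene end, 2353 did. The table of start windows covered 17491 of 21896 protein-coding genes (79.9%) and 9533 of 12731 lncRNA genes (74.9%). An element without a window is therefore not known to lack a start, and 92 of the 299 such elements lay in or nearest to a gene with no entry in that table.

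Sequences are given for 5 start windows from the RefSeq table (GRCm38.p6, the assembly of mm10), each given as the 250 bases before the start, 5′ to 3′ on the strand of the gene. Chaserr, Dleu2 and Cic are shown because their elements were higher in palmitate under both scalings used here, and Hdac4 and Sp2 because theirs were higher under only one. Capitals mark 2 motifs on either strand, GGGCGG, the GC box bound by SP and KLF factors, and CCAAT, the box bound by NFY. Overlapping matches were counted separately.
Chaserr (chr7:73558396-73558645, minus strand): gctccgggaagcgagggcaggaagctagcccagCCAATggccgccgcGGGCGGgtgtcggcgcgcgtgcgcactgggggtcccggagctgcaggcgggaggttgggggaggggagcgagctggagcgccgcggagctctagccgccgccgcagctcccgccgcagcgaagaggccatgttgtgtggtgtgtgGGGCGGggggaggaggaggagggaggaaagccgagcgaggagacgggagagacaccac
Dleu2 (chr14:61682374-61682623, minus strand): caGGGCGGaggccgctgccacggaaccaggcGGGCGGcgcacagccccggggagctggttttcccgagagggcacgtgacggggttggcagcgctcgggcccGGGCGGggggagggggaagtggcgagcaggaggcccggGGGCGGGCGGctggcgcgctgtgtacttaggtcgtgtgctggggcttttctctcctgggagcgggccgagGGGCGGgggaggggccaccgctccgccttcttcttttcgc
Cic (chr7:25281929-25282178, plus strand): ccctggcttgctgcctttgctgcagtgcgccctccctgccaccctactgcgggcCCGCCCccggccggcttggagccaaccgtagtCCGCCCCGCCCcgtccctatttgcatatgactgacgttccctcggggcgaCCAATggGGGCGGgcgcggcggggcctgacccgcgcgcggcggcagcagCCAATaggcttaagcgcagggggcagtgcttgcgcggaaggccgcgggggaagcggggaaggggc
Hdac4 (chr1:92180342-92180591, minus strand): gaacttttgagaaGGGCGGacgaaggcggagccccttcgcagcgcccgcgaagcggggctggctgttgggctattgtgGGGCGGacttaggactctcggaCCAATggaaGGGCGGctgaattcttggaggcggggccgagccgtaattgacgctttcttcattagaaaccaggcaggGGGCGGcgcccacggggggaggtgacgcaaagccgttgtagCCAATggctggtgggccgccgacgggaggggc
Sp2 (chr11:96977689-96977938, minus strand): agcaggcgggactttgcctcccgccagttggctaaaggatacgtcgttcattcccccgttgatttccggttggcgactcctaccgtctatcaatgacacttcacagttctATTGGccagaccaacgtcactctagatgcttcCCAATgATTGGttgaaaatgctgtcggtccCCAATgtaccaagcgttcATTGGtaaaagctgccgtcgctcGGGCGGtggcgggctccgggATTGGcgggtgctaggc

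All 5 stretches lay wholly inside their element. Dleu2 held 6 matches of GGGCGG and no CCAAT, Sp2 held 1 and 6, Cic and Hdac4 each held 4 and 2, and Chaserr held 2 and 1. Their GC content was 74.8% in Dleu2, 73.6% in Chaserr, 73.2% in Cic, 65.2% in Hdac4 and 55.6% in Sp2. These matches describe the letters in the windows and not the binding of a factor.

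Over all 350 distinct start windows in the elements, GC content had a median of 65.7% and the median window held 27 CpG dinucleotides. The 3325 windows in strong gene-end regions had 65.0% and 26, the 1233 windows in weaker distal regions 58.3% and 15, while all 32544 distinct RefSeq windows had 53.0% and 7. GGGCGG occurred in 79.1% of the windows in the elements, 81.1% of those in strong gene ends, 52.6% of those in weaker distal regions and 35.9% of all windows. CCAAT occurred in 41.4%, 50.9%, 31.9% and 37.4%, in the same order. The ETS motif CCGGAAGT occurred in 7.14%, 8.57%, 6.16% and 3.92%, and the NRF1 motif GCGCATGC in 8.0%, 7.46%, 2.84% and 2.73%. The RUNX motif TGTGGT occurred in 10.9%, 9.77%, 17.4% and 16.7%, in the same order. It occurred in 13 (23.2%) of the 56 windows in the elements that held only lncRNA starts, and no share over other lncRNA windows is given here. The CTCF consensus occurred in 1.71% of the windows in the elements (6 windows), and in 0.60%, 2.19% and 0.56% of the others. The start windows in the elements thus had a base composition close to that of strong gene ends. The sequence of the 299 elements without a window was not analysed here.

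The elements were 250 to 1824 bp wide (median 668 bp), with a mean CPM of 80.5 to 654 (median 115). The nearest end of a protein-coding gene lay 1.01 to 708 kb away (median 6.16 kb). Inside protein-coding genes lay 374 elements, and 189 were intergenic. Chromosome 11 held the most, 64, followed by chromosome 7 with 49. The elements were nearest to 517 different genes, of which 475 had 1 element and 42 had more. Elements are named by the nearest protein-coding gene, and no target gene is implied.

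Just inside the limit of 80 CPM lay elements at Btbd10 (80.5 CPM), Bach2 (80.6) and Sbf1 (80.9). Just outside it lay regions at Pllp (79.98 CPM), Rnf114 (79.8) and Gpr84 (79.7).

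The libraries held 2219136 to 3089230 counts in regions, and every element had at least 148 counts in each library. All 563 elements overlapped a listed peak in all 6 libraries, as did 2829 of the 2830 strong gene-end regions, against 42.7% of the weaker distal regions. A strong region is more easily called as a peak, so the strength rule bears on this count. Control 2 had the lowest share of its counts in the elements of all libraries. All 6 markers listed for CD8 T cells had a region at a gene end, at 20.9 to 106 CPM. They were Cd8a (27.1 CPM), Cd8b1 (83.3 CPM) and the T cell receptor complex genes Cd3e, Cd3d, Cd3g and Cd247. Of the other markers, 1 of 3 for CD4 T cells (53.2 CPM), 1 of 6 for B cells (13.98), 3 of 7 for myeloid cells (9.04 to 16.6), 0 of 3 for NK cells, 1 of 4 for erythroid cells (40.3), 1 of 8 for pancreas (36.8) and 1 of 6 for fibroblasts or endothelium (24.4) had one. The summed level of these other markers was 174 to 207 CPM in the control libraries and 196 to 227 CPM in the palmitate libraries, and the groups overlapped. Among them the region of Itgam, a myeloid marker, went from a mean of 6.33 to 12.0 CPM. All its palmitate libraries lay above all controls, as in 17.9% of all tested regions. The region of Zbtb7b, a CD4 lineage factor, went from 45.1 to 62.2 CPM, with overlapping groups. These were the largest rises, and the means at Ebf1 and Spi1 rose by less. The means at Cela1, Klf1, Col1a1 and Cebpa were lower in palmitate, with the largest fall at Cela1, from 38.8 to 34.6 CPM. The part of other cells in the results was not tested.

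The 8 strongest elements are named here. The element inside Kat6b, a histone acetyltransferase, had a mean of 654 CPM. Those inside Add3, an adducin of the membrane skeleton, and Sin3a, the scaffold of a histone deacetylase complex, had 603 and 496 CPM. Elements inside Tsga10, Ssc4d, Hdac4, a class II histone deacetylase, Rfx1, a transcription factor that binds X-box motifs, and Zbtb7a, a zinc finger repressor, followed with 456, 436, 418, 399 and 397 CPM. Of these 8 elements, Add3, Sin3a, Tsga10, Hdac4 and Rfx1 held a start window.

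Differences between palmitate and control were estimated with 2 scalings. The first, TMM factors, gives each library 1 scaling factor. The second, trended offsets, also removes each library's smooth trend of counts on region strength. A region was called where the Benjamini-Hochberg adjusted p of the edgeR quasi-likelihood test over all 24316 tested regions was under 0.05, and fold changes are palmitate over control on the log2 scale with their standard error. CPM values per library are scaled by the TMM factors.

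With TMM factors, 293 of the 563 elements (52.0%) were higher in palmitate, 18 (3.20%) were lower and 252 were not called. Over all tested regions, 11.9% were called higher and 12.7% lower. The median log2 fold change of the elements was 0.23, against -0.05 over all tested regions, 0.26 over strong gene-end regions and -0.26 over weaker distal regions. The 3 palmitate libraries all lay above the 3 controls in 337 elements and all below in 18, where the backgrounds were 17.9% and 21%.

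With trended offsets, 19 elements were higher and 48 lower, where 2.09% and 3.97% of all tested regions were called. The median log2 fold change of the elements was then -0.01. All 19 had also been called higher with TMM factors, and all 18 that were lower with TMM factors were among the 48. No element was called in opposite directions by the 2 scalings.

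With TMM factors, higher calls were more frequent in stronger elements. In these fits 58 of 190 elements between 80 and 100 CPM were higher and 10 lower, as were 104 and 8 of 219 between 100 and 150 CPM. Of the 154 elements of 150 CPM or more, 131 were higher and none was lower, with a median log2 fold change of 0.30. The count of lower elements in that last class was also 0 at an unadjusted p under 0.05, with the DESeq2 Wald test and with limma-voom. It was 1 with total counts and 6 with trended offsets. With trended offsets, 8, 5 and 6 elements of the 3 classes were higher and 23, 19 and 6 lower, from weakest to strongest. With TMM factors, strong gene-end regions of the same 3 classes had 288 of 685, 585 of 1057 and 925 of 1088 higher. In the same order, 3, 5 and 0 were lower.

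**Figure D1:**
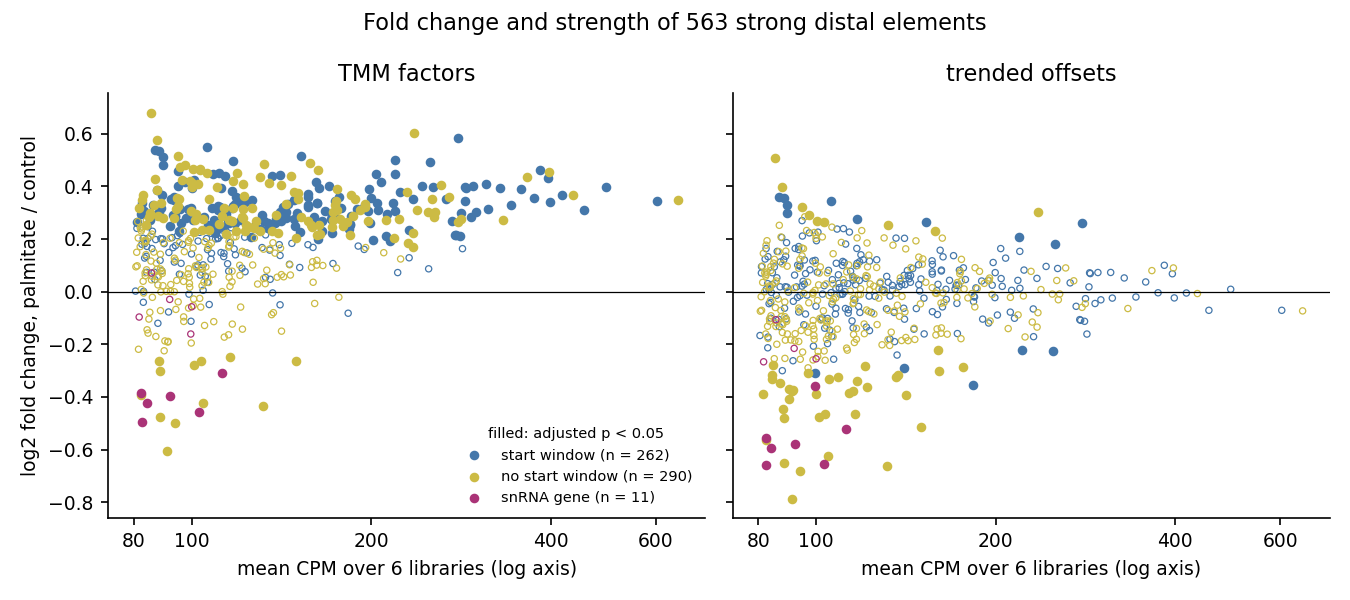
Log2 fold change (palmitate over control) of each of the 563 elements against its mean CPM on a log axis, with TMM factors (left) and trended offsets (right). Colours separate elements with an snRNA gene (11), other elements with a start window (262) and the remaining 290, and filled points passed the edgeR adjusted p of 0.05; the band of fold changes lies above 0 on the left and around 0 on the right.

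The share of each library's region counts that lay in the elements was 7.63% in control 1, 7.25% in control 2 and 7.63% in control 3. In the palmitate libraries it was 8.04%, 8.15% and 8.13%. The mean was 7.5 ± 0.22% in control and 8.11 ± 0.057% in palmitate (SD, n = 3 each), and the groups did not overlap. The difference of 0.602 percentage points was 0.474 without control 2. The elements with a start window went from 3.77 ± 0.083% to 4.21 ± 0.026%, and those without one from 3.73 ± 0.14% to 3.90 ± 0.032%. Over the same libraries, strong gene-end regions went from 42.2% to 47.1% and weaker distal regions from 27.4% to 22.3%. These shares of 1 total are not independent of each other.

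**Figure D2:**
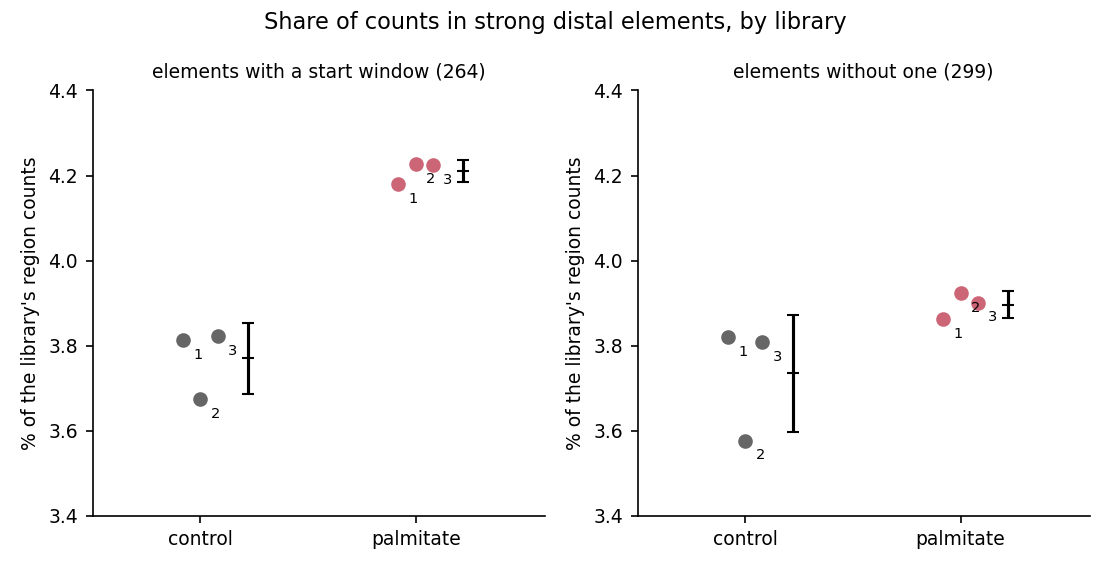
Percent of each library's region counts in the 264 elements with a start window (left) and the 299 without one (right), with the axis cut to 3.4 to 4.4%. Numbered points are libraries and bars give the group mean ± SD (n = 3); palmitate libraries lie above all controls in both panels, and control 2 is the lowest control.

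With TMM factors, all lower calls lay in elements without a start window of a protein-coding or lncRNA transcript. Of the 264 with a start window, 168 were higher with TMM factors and none was lower. That count was also 0 at an unadjusted p under 0.05, with the DESeq2 Wald test and with limma-voom. It was 1 with total counts. Of the 299 without one, 125 were higher and 18 lower. Among strong gene-end regions, 1509 of 2353 with a window were higher and 5 lower with TMM factors. Of the 477 without one, 289 were higher and 3 lower. With trended offsets, 10 elements with a window were higher and 5 lower, and 9 and 43 of those without one. Leaving out 1 library gave 3 to 8 higher and 1 to 10 lower elements with a window under trended offsets, and 22 to 55 lower without one, where 10 and 55 were the counts without control 2. With TMM factors, 28 elements without a window were lower when control 2 was left out. The lower elements without a window numbered 10 of 118 between 80 and 100 CPM and 8 of 117 between 100 and 150 CPM with TMM factors. Among the 207 elements without a window whose gene was in the start table, 74 were higher and 17 lower, and with trended offsets 5 and 36. The difference between the 2 kinds of element was described after earlier results of these data were known and was not tested.

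**Figure D3:**
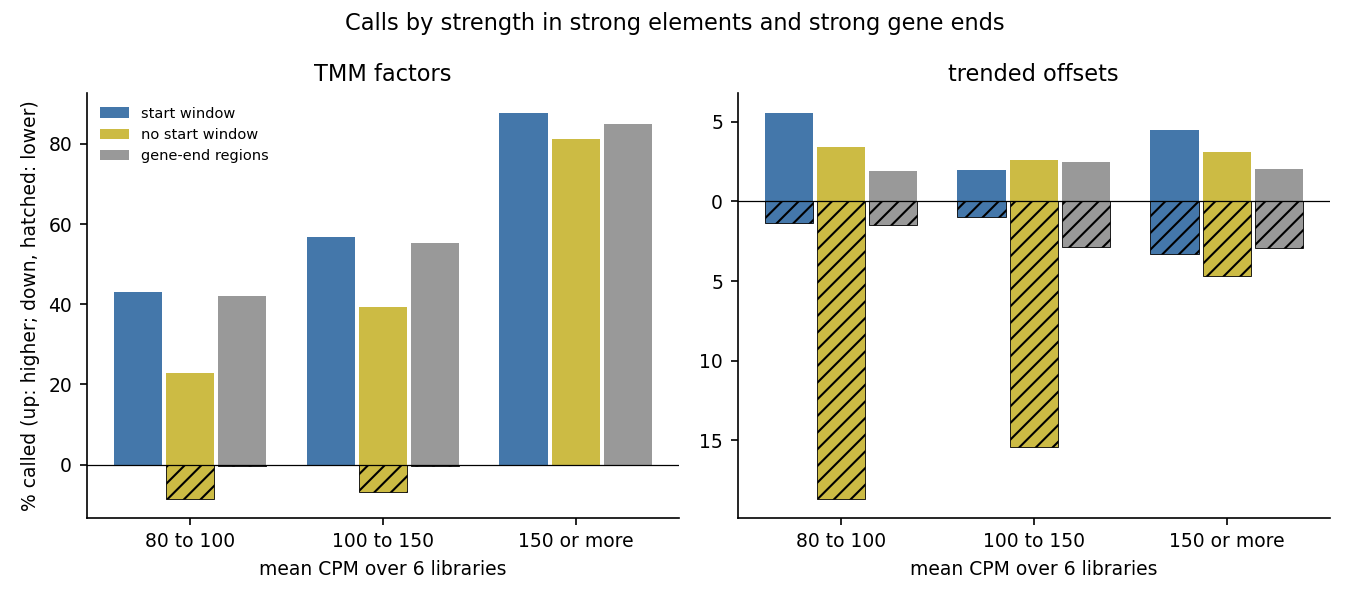
Percent of regions called higher (upward bars) or lower (downward, hatched bars) by edgeR in 3 classes of mean CPM, with TMM factors (left) and trended offsets (right), whose vertical scales differ. Blue and yellow bars are strong distal elements with and without a start window and grey bars are strong gene-end regions; the yellow bars hold all 18 lower calls of the elements with TMM factors and reach 18.6% with trended offsets.

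GC content moved with the fold change among elements with a start window. In the 250 bases before the start it had a median of 66.8% in the 168 elements that were higher with TMM factors and 62.4% in the 96 that were not called. Across all 264 elements, Pearson's r between GC content and the log2 fold change was 0.24 with TMM factors and 0.23 with trended offsets, and Spearman's rho was 0.23 and 0.20. These elements came from the same 6 libraries and are not independent replicates. The part of base composition in the result was not tested.

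Elements inside genes and intergenic elements also differed in their counts. Inside genes, 217 of 374 were higher and 9 lower with TMM factors, and among intergenic elements 76 of 189 were higher and 9 lower. With trended offsets, 12 and 22 elements inside genes and 7 and 26 intergenic ones were higher and lower. A start window lay in 222 of the 374 elements inside genes and in 42 of the 189 intergenic ones. Without a window, 74 of 152 elements inside genes were higher and 9 lower with TMM factors, and 18 lower with trended offsets. Of 147 intergenic ones without a window, 51 were higher and 9 lower with TMM factors, and 25 lower with trended offsets. The part of each split was not tested. Of the 16 elements more than 100 kb from any gene end, 3 were higher and 2 lower with TMM factors, with a median log2 fold change of -0.00. With trended offsets 4 of the 16 were lower and the median was -0.20. Over all tested regions, 11.9% were called higher and 12.7% lower with TMM factors, and 3.97% lower with trended offsets. Of all 563 elements these shares were 52.0%, 3.20% and 8.53%. The set of 16 was not tested against these shares.

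The rise with the smallest p lay at Chaserr, an lncRNA gene next to Chd2 whose transcript is known to restrain Chd2, a chromatin remodeller. The element (chr7:73558365-73558898) holds the Chaserr start window and lies 16.6 kb from the Chd2 gene. Its values were 230, 211 and 236 CPM in the 3 controls and 333, 347 and 332 CPM in the 3 palmitate libraries, each in the order of the replicate numbers. All palmitate libraries lay above all controls. The log2 fold change was 0.58 ± 0.063 (edgeR adjusted p 3.5e-07) with TMM factors and 0.26 ± 0.053 (edgeR adjusted p 0.00285) with trended offsets. The 2 other strong elements nearest to Chd2 rose by 0.38 and 0.35 on the log2 scale with TMM factors.

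The element inside Actb, the gene of cytoplasmic beta-actin (chr5:142905720-142906271), had 188, 172 and 206 CPM in control and 269, 315 and 275 CPM in palmitate. The groups did not overlap. Its log2 fold change was 0.60 ± 0.072 (edgeR adjusted p 1.51e-06) and 0.30 ± 0.062 with trended offsets (edgeR adjusted p 0.00306). No start window for Actb was in the table, and the element lay 1.71 kb from the nearer gene end.

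The internal start of Cic, a transcriptional repressor with a long and a short isoform, lay in an element (chr7:25281871-25282573) of 214, 198 and 219 CPM in control and 291, 312 and 283 CPM in palmitate. The groups did not overlap, and the log2 fold change was 0.49 ± 0.065 (edgeR adjusted p 4.19e-06) with TMM factors. With trended offsets it was 0.18 ± 0.056 (edgeR adjusted p 0.0476), close to the threshold. A second strong element inside Cic, 2.60 kb away, rose by 0.23 on the log2 scale with TMM factors.

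The start of Dleu2, the lncRNA gene that hosts the miR-15a and miR-16 cluster, lay in an element (chr14:61682197-61682794) whose nearest protein-coding gene, Kcnrg, is 69.4 kb away. It had 72.8, 77.5 and 72.4 CPM in control and 104, 111 and 104 CPM in palmitate, with no overlap. Its log2 fold change was 0.51 ± 0.087 with TMM factors and 0.33 ± 0.085 with trended offsets (edgeR adjusted p 7.56e-05 and 0.0174).

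The element 3.53 kb from Ankrd12 (chr17:65961517-65962178), a gene for an ankyrin repeat protein, had the highest fold change of all 563. It went from 72.3, 52.6 and 74.8 CPM to 107, 110 and 100 CPM. Control 2 was the lowest library and the groups did not overlap. Its log2 fold change was 0.68 ± 0.10 with TMM factors and 0.51 ± 0.10 with trended offsets (edgeR adjusted p 2.18e-05 and 0.00211). Elements inside Epb41, a membrane skeleton protein gene, Kif27, a kinesin gene, Phf23 and Ppfibp1 were also higher under both scalings, with log2 fold changes of 0.55, 0.58, 0.54 and 0.54 with TMM factors. Under trended offsets these were 0.34, 0.40, 0.36 and 0.36. Among the 19 elements that were higher under both scalings, 10 held a start window.

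Other strong risers passed with TMM factors only. The element inside Tob1, an antiproliferative gene expressed in resting T cells, had 322, 319 and 333 CPM in control and 449, 464 and 428 CPM in palmitate. Its log2 fold change was 0.46 ± 0.058 (edgeR adjusted p 2.29e-06), and 0.10 ± 0.050 with trended offsets (edgeR adjusted p 0.243). The element inside Sp2, a GC-box factor gene, had 358, 320 and 340 CPM in control and 470, 433 and 467 CPM in palmitate, and the one inside Zbtb7a had 354, 317 and 342 CPM against 438, 466 and 482 CPM. Their log2 fold changes were 0.43 and 0.45 with TMM factors and 0.07 and 0.09 with trended offsets. In each of these 3 elements the groups did not overlap. The strongest element of all, inside Kat6b, had 602, 563 and 570 CPM in control and 771, 722 and 716 CPM in palmitate, with a log2 fold change of 0.35 ± 0.054 and of -0.07 ± 0.047 with trended offsets.

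The 18 elements that were lower with TMM factors had log2 fold changes from -0.25 to -0.61 and mean CPM of 82.2 to 150. Their groups did not overlap in 15, and 9 lay inside genes. Without control 2 the count of lower elements was 28, and in 11 of the 18 control 2 was the lowest control. The edgeR calls of 9 of the 18 held in all 14 alternative fits. The calls at the other 9, nearest to Lrp8, Pik3cd, Klf14, Igdcc3, Agpat3, B3gnt2, Arl4d, Dnmt3a and Gpr65, were each lost when at least 1 of the 6 libraries was left out.

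The largest fall was at an element inside Nek6 (chr2:38536302-38536872), a mitotic kinase gene, 50.6 kb from the nearer gene end. It had 119, 89.2 and 119 CPM in control and 74.1, 63.5 and 77.1 CPM in palmitate. All palmitate libraries lay below all controls, of which control 2 was the nearest. The log2 fold change was -0.61 ± 0.10 (edgeR adjusted p 8.5e-05), and -0.79 ± 0.10 with trended offsets (edgeR adjusted p 1.19e-05).

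An intergenic element 64.5 kb from Rbpj, the DNA-binding effector of Notch signalling (chr5:53490615-53491311), had 111, 87.2 and 109 CPM in control and 77.7, 68.0 and 74.8 CPM in palmitate. An element inside Ip6k1, an inositol hexakisphosphate kinase gene (chr9:108035238-108035893), had 136, 103 and 120 CPM against 85.5, 88.0 and 91.6 CPM. Neither showed overlap between the groups. Their log2 fold changes were -0.47 ± 0.097 and -0.42 ± 0.091 with TMM factors (edgeR adjusted p 0.000628 and 0.000977).

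Hif1a, the oxygen-regulated transcription factor that drives glycolytic genes, had 2 strong elements that differed in opposite directions. The intergenic one, 58.5 kb from the gene (chr12:73842021-73842800), had 93.7, 90.2 and 94.9 CPM in control and 76.5, 69.0 and 66.7 CPM in palmitate. The one inside the gene (chr12:73907532-73908157), at an internal start, had 119, 150 and 155 CPM in control and 179, 201 and 181 CPM in palmitate. Neither showed overlap between the groups. The first had a log2 fold change of -0.39 ± 0.091 (edgeR adjusted p 0.00194), and -0.56 with trended offsets (edgeR adjusted p 0.000235). The second had 0.39 ± 0.081 (edgeR adjusted p 0.000667), and 0.13 with trended offsets, which did not pass (edgeR adjusted p 0.33).

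Of the remaining lower elements without a small RNA gene, the ones inside Septin9, a cytoskeletal GTPase gene, and Lrp8, a lipoprotein receptor gene, had overlapping groups. Lrp8 had 170, 110 and 172 CPM in control and 118, 101 and 114 CPM in palmitate, so that control 2 lay among the palmitate libraries. Elements inside Pik3cd, the phosphoinositide 3-kinase subunit of leukocytes, and Dnmt3a, a DNA methyltransferase gene, had log2 fold changes of -0.28 and -0.30. Those nearest to B3gnt2, 141 kb away, and Klf14, 167 kb away, had -0.27 and -0.26, as did that inside Gpr65, an acid-sensing receptor gene (-0.26), and that inside Agpat3 (-0.25), an acyltransferase gene of phospholipid synthesis.

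**Figure D4:**
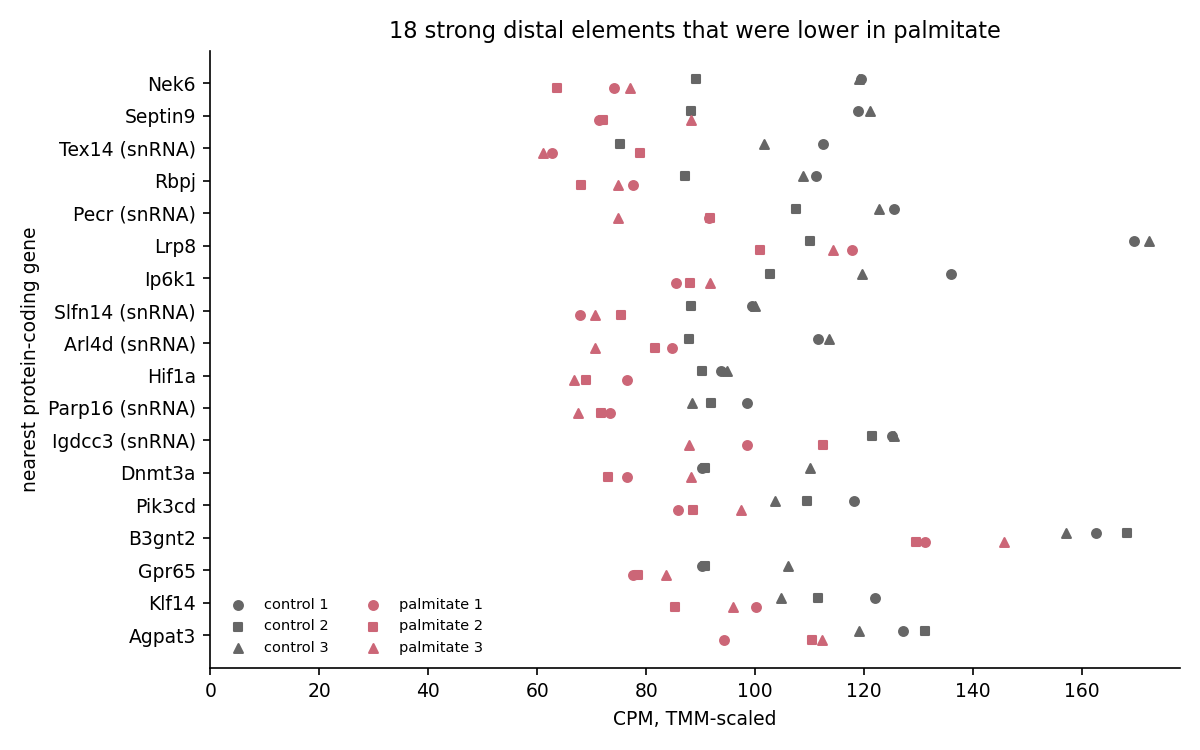
CPM scaled by TMM factors in each library for the 18 elements that were lower in palmitate with TMM factors, ordered by log2 fold change with the largest fall at the top. Grey symbols are controls and red symbols palmitate libraries, with circle, square and triangle for replicates 1, 2 and 3; the square of control 2 is the lowest grey symbol in 11 elements.

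Of the 18 lower elements, 6 overlapped a gene that RefSeq classes as small nuclear RNA (snRNA), a group singled out after its values were seen. Small nuclear RNAs form the core of the spliceosome, and their genes have compact promoters of their own. The elements held Rnu3b1 (U3, which acts in ribosomal RNA processing) inside Tex14, Rnu2-10 (U2) near Arl4d, Rnu5g (U5) near Parp16, and Gm25939, Gm23444 and Gm25313 near Pecr, Slfn14 and Igdcc3.

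The Rnu2-10 element (chr11:101657961-101659175) had 112, 87.8 and 114 CPM in control and 84.7, 81.5 and 70.6 CPM in palmitate. The Rnu5g element (chr9:65201127-65202256) had 98.5, 91.8 and 88.4 CPM against 73.3, 71.7 and 67.5 CPM, and the Rnu3b1 element (chr11:87442806-87443979) had 112, 75.2 and 102 CPM against 62.7, 78.8 and 61.0 CPM. The groups did not overlap at Rnu2-10 and Rnu5g and did at Rnu3b1. Their log2 fold changes were -0.40 ± 0.099, -0.39 ± 0.091 and -0.49 ± 0.12 (edgeR adjusted p 0.0036, 0.00227 and 0.00216).

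In all, 11 elements overlapped an snRNA gene, and their median log2 fold change was -0.31 with TMM factors, against 0.23 over all 563. The 5 that were not called held Gm22068, Gm24497, Gm25541, Rnu1a1 and Gm25064, with log2 fold changes of -0.16, -0.10, -0.06, -0.03 and 0.07. With trended offsets 7 of the 11 were lower. The DESeq2 Wald test called 5 lower, 4 were lower without control 3 and 7 without control 2. Lower calls made up 12.7% of all tested regions with TMM factors and 3.97% with trended offsets, and 3.20% and 8.53% of all 563 elements. Higher calls with TMM factors made up 11.9% of all tested regions. Among 26 regions with an snRNA gene that were not strong distal elements, 14 were lower and 2 higher, with a median of -0.31. Several lie close together, such as those of Gm25313 and Rnu5g, 4.14 kb apart, and those of Rnu1a1 and Gm22068, 2.96 kb apart. These genes have many near-identical copies, and how the authors assigned reads that map to several of them is not given in the sources used here, so the counts at these elements are uncertain.

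Of the 8 elements with a transfer RNA gene, 3 were higher with TMM factors, with a median log2 fold change of 0.08 with TMM factors and -0.12 with trended offsets. Among 114 transfer RNA regions that were not strong distal elements, 11 were higher and 22 lower with TMM factors, with a median of -0.06. With TMM factors 11.9% of all tested regions were higher and 12.7% lower, against 52.0% and 3.20% of all 563 elements. The element with n-TTcgt3 near Rab11fip4 went from 88.9, 91.8 and 80.6 CPM to 112, 116 and 115 CPM (log2 fold change 0.39 ± 0.084, edgeR adjusted p 0.000919). With trended offsets 1 of the 8, which holds 4 transfer RNA genes near Trim55, was lower. The shares lower were then 3.97% of all tested regions and 8.53% of all 563 elements. The difference between the 2 classes of small RNA gene was not tested.

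The element 2.08 kb from Ovca2 (chr11:75173070-75173861) held the genes of miR-132 and miR-212, 2 microRNAs of 1 cluster. Their 3p arms are shown with the seed (bases 2 to 8) in capitals, since both carry the same seed.
mmu-miR-132-3p: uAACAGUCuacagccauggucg
mmu-miR-212-3p: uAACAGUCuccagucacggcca
The element had 86.3, 79.5 and 96.9 CPM in control and 112, 125 and 124 CPM in palmitate, and the groups did not overlap. Its log2 fold change was 0.46 ± 0.087 (edgeR adjusted p 0.000255), and 0.26 ± 0.082 with trended offsets, which just missed the threshold (edgeR adjusted p 0.0525). Accessibility of the element does not measure the level of the microRNAs.

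**Figure D5:**
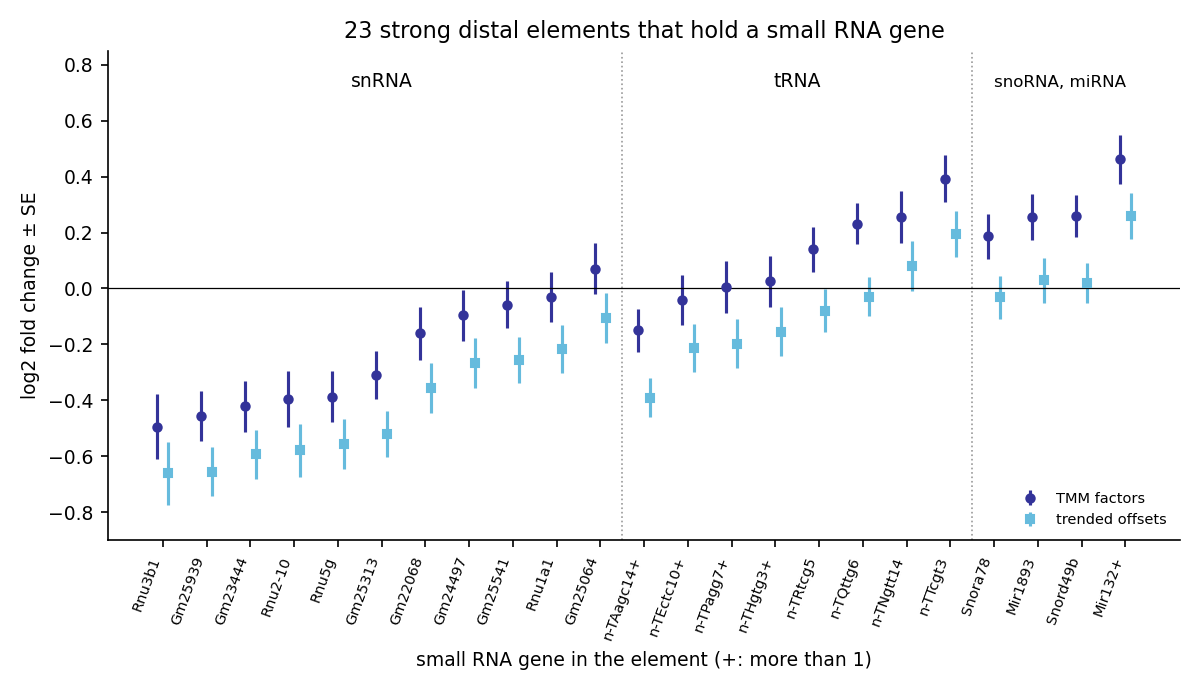
Log2 fold change ± SE (palmitate over control, edgeR) of the 23 elements that hold a small RNA gene, with TMM factors (circles) and trended offsets (squares), grouped by class of RNA. Of the snRNA elements 10 of 11 lie below 0 with TMM factors, and most of the transfer RNA, snoRNA and microRNA elements lie at or above it; with trended offsets most of the transfer RNA squares lie below 0.

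Of 234 genes of T cell identity, activation, stress and metabolism in 9 lists, 30 were the nearest gene of 37 elements. With TMM factors 15 of the 37 were higher, 1 was lower and 21 were not called. Of all tested regions 11.9% were higher and 12.7% lower, and of all 563 elements 52.0% and 3.20%. With trended offsets none of the 37 was higher and 6 were lower. The shares called were then 2.09% and 3.97% of all tested regions, and 3.37% and 8.53% of all 563 elements. At an unadjusted p under 0.05, 23 of the 37 were higher and 2 lower with TMM factors, and 2 higher and 10 lower with trended offsets.

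Activation-induced factors had 13 elements at 10 genes, of which 6 were higher with TMM factors. An element 7.09 kb from Nr4a1, an orphan nuclear receptor induced by antigen receptor signals, had 105, 121 and 121 CPM in control and 160, 156 and 148 CPM in palmitate (log2 fold change 0.41 ± 0.077, edgeR adjusted p 0.00023). An element 1.08 kb from Junb, an AP-1 subunit gene, had 87.6, 72.2 and 83.3 CPM against 108, 129 and 97.4 CPM (0.47 ± 0.098, edgeR adjusted p 0.000649). Both had groups without overlap, and neither passed with trended offsets (edgeR adjusted p 0.157 and 0.0655). The others that were higher lay near Fos (18.2 kb and 8.59 kb away), Egr2 and Nr4a3, with log2 fold changes of 0.31, 0.28, 0.30 and 0.19. None of these 4 passed with trended offsets. The strong element inside Nr4a1 had 0.21 with TMM factors and was not called (edgeR adjusted p 0.0565). The call at Nr4a3 held in 4 of the 14 alternative fits and, of the single libraries, could be lost by leaving out any but control 3. The call at the nearer Fos element held in 8 of 14 and was lost without control 3 or palmitate 2. The element near Cd69, an early activation marker, had a log2 fold change of 0.00, and one 179 kb from Myc had -0.09 with TMM factors and -0.32 with trended offsets (edgeR adjusted p 0.00543).

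Naive and memory genes had 8 elements at 5 genes, of which 3 were higher with TMM factors. They lay inside Ets1, a lymphocyte ETS factor gene (log2 fold change 0.36 ± 0.080), 30.6 kb from Tcf7, a factor of naive and stem-like T cells (0.35 ± 0.087), and inside Bach2, a repressor that restrains effector differentiation (0.27 ± 0.077). The Tcf7 element had 88.0, 97.2 and 96.9 CPM in control and 116, 110 and 135 CPM in palmitate, without overlap. Their edgeR adjusted p values were 0.00128, 0.00339 and 0.0109, and none of the 3 passed with trended offsets. The Tcf7 call was lost without palmitate 3 and the Bach2 call without palmitate 1. The element nearest to Foxp1, a factor that maintains T cell quiescence, had a log2 fold change of -0.15 with TMM factors, which did not pass, and -0.32 with trended offsets, which did (edgeR adjusted p 0.0435). That nearest to Satb1, a chromatin organiser of T cells, had -0.00 and -0.18, neither of which passed. Bach2 had 3 strong elements in all, more than any other gene of the lists. Those of Bach2 that were not called had log2 fold changes of 0.20 and 0.09 with TMM factors (edgeR adjusted p 0.0688 and 0.55). The other strong element nearest to Tcf7 had 0.10 with TMM factors (edgeR adjusted p 0.44) and -0.10 with trended offsets, and was not called.

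Among metabolic genes, the element 8.33 kb from Slc2a3, the glucose transporter GLUT3 gene, had 236, 196 and 210 CPM in control and 263, 261 and 270 CPM in palmitate (log2 fold change 0.31 ± 0.067, edgeR adjusted p 0.00106). That inside Hk1, a hexokinase gene, at an internal start, had 162, 158 and 158 CPM against 185, 183 and 189 CPM (0.22 ± 0.068, edgeR adjusted p 0.016). With trended offsets these were 0.01 and -0.04. The Hk1 call was lost without palmitate 3. The element inside Acaca, the acetyl-CoA carboxylase gene of fatty acid synthesis, had 171, 156 and 207 CPM in control and 184, 193 and 148 CPM in palmitate, with overlapping groups. It was not called with TMM factors (-0.02 ± 0.089), and was lower with trended offsets (-0.29, edgeR adjusted p 0.0334).

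In the other lists, the element inside Cd247, the T cell receptor zeta chain gene, rose with TMM factors (0.22 ± 0.074, edgeR adjusted p 0.0296) and had -0.04 with trended offsets. Its call was lost without control 2 or palmitate 3. Those near Cd5, a receptor that dampens T cell receptor signals, and near Il4ra had -0.14 and -0.22 with TMM factors, which did not pass, and -0.36 and -0.39 with trended offsets, which did (edgeR adjusted p 0.0159 and 0.0212). The element inside Bcl2l1, which encodes the survival factor BCL-XL, had 0.16 with TMM factors (edgeR adjusted p 0.0567) and -0.16 with trended offsets (edgeR adjusted p 0.0651). The element near Runx3, a factor of the CD8 lineage, had 0.07 and -0.14, neither of which passed. An element over the T cell receptor alpha constant segment Trac had 159 CPM and a log2 fold change of 0.11, which did not pass.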

How the data were processed

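ATAC-seq was analysed in 3 control and 3 palmitate libraries of mouse CD8+ T cells. The authors deposited 1 matrix with whole-number counts of reads in 24605 regions, and the peak lists deposited by the authors give each library's peaks with a score. The submitters' processing notes name MACS2 2.2.8, Picard 2.23.8, Bowtie2 2.5.1, Trim Galore 0.6.10 and edgeR 3.40.2, on build mm10. Whether reads were shifted for Tn5, how regions were merged and how reads were counted is not given in the sources used here.

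Counts were tested with the edgeR 4.0.16 quasi-likelihood F-test (R 4.3.3, limma 3.58.1), two-sided, with TMM factors of 0.953 to 1.05. The filterByExpr count filter left 24316 regions, and p-values were adjusted by Benjamini-Hochberg over all of them at 0.05. The common biological coefficient of variation was 0.0659. Trended offsets were fitted per library by loess (span 0.3, 0.5 reads added) of log counts against mean abundance. The fitting code was tested on simulated data. Alternatives were other scalings, no count filter, the DESeq2 1.42.0 Wald test, limma-voom, a replicate block, each library left out, other limits of strength and distance, and other peak overlaps. Calls under trended offsets with each library left out, and counts by start window and small RNA gene under each alternative, were added after seeing the data.

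Gene spans, starts and microRNAs came from RefSeq tables of GRCm38.p6, the assembly of mm10, with regions placed as the matrix gives them. Coordinates were blank for 4 of 49997 genes, which did not enter the distances, although the start window of 1 of them was used. A motif search centred on the regions was planned but needs a genome, which was not used here, so 14 motifs were searched in the RefSeq start windows (250 bases before to 50 after a start), including CTCF by its consensus. The members and lists were chosen with earlier results of these data known. Elements were named by rule: the 8 higher and 8 lower with the smallest edgeR p and groups without overlap, the 8 strongest, up to 3 of the strongest and 5 called ones of each list, 3 on either side of the limit, and up to 8 called in each direction by both scalings. The other lower elements and those with small RNA genes were chosen after their values were seen. So were the second elements of Chd2, Cic, Tcf7 and Nr4a1, and those at Trac, Myc, Cd69, Foxp1 and Satb1. The main fit did not pair libraries by replicate number, and the replicate block was an alternative. The correlations of same-numbered libraries cannot show whether they were paired.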

Additional observations from a re-analysis of the deposited data

How the results depend on the processing

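The 293 higher and 18 lower elements and the median log2 fold change of 0.23 depended on the scaling. With total counts they were 145, 35 and 0.11, and with trended offsets 19, 48 and -0.0053. The median was 0.17 with upper-quartile factors and 0.26 with DESeq2 size factors or the DESeq2 Wald test, which called 10 lower. Leaving out 1 library gave 219 to 280 higher, 12 to 28 lower (28 without control 2) and medians of 0.20 to 0.27. Under trended offsets the counts were 5 higher and 32 lower without control 1, 18 and 65 without control 2, and 6 and 26 without control 3. They were 11 and 37, 7 and 36, and 11 and 27 without palmitate libraries 1, 2 and 3. At a limit of 60 CPM there were 904 elements, 43 lower, with a median of 0.19, and 903 had a peak in all 6 lists. At 120 CPM there were 248, 181 higher and 2 lower, with a median of 0.27, and all 248 had such a peak. The rise of the share of counts, 0.602 percentage points, was 0.362 for the 411 elements more than 2.5 kb from a gene end. Of the named elements, 47 were called with TMM factors and 24 in the same direction with trended offsets, 21 by both; Acaca, Cd5 and Il4ra were called with trended offsets only. Among those called with TMM factors, the sign turned with trended offsets at Add3 (-0.071), Cd247 (-0.042), Hdac4 (-0.0053), Hk1 (-0.045), Kat6b (-0.073), Nr4a3 (-0.12), Rfx1 (-0.024), Ssc4d (-0.0073) and Tsga10 (-0.071), and among those called under neither at Bcl2l1 (-0.16), Runx3 (-0.14), Bach2 (-0.025) and Dgkz (-0.0033). Higher calls held in all 14 alternative fits for 19 of 293 elements and lower calls for 9 of 18. With the replicate block, 280 elements were higher and 18 lower. The correlation of same-numbered libraries was 0.00, -0.10 and -0.03, and that of differently numbered ones was -0.07 to 0.09. With 3 libraries per group these values cannot show whether same-numbered libraries were paired. The cause of the differences between the fits was not tested. Every element had at least 148 counts in each library, and the standard error was 0.10 at Ankrd12 and 0.054 at the stronger Kat6b element.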

Other observations

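Some elements with an annotated start were lower only after the trend on strength was removed. Those inside Aph1b, a gamma-secretase subunit gene, Fancc, a Fanconi anaemia gene, Ipo5, a nuclear import receptor gene, and Rpp40, a ribonuclease P subunit gene, had log2 fold changes of -0.35, -0.22, -0.22 and -0.31 with trended offsets (edgeR adjusted p 0.0012, 0.0128, 0.025 and 0.035). With TMM factors they had -0.08, 0.09, 0.07 and -0.11, and none was called. The Aph1b element had 205, 175 and 185 CPM in control and 173, 171 and 189 CPM in palmitate, with overlapping groups.

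Among the 16 elements far from any gene end, 3 were higher and 2 lower with TMM factors, and 4 were lower with trended offsets. The shares over all tested regions were 11.9% and 12.7% with TMM factors, and 3.97% lower with trended offsets. One higher element of the 16 lay 246 kb from Btg1, an antiproliferative gene of resting lymphocytes. It had 67.5, 78.5 and 71.4 CPM in control and 93.8, 95.8 and 91.6 CPM in palmitate, without overlap (log2 fold change 0.37 ± 0.091, edgeR adjusted p 0.00348). With trended offsets its log2 fold change was 0.19, which did not pass (edgeR adjusted p 0.205). The element with the Trac segment lay 4.36 kb from another strong element, nearest to Dad1, which went from 168 ± 1.89 to 205 ± 7.31 CPM (SD, n = 3; log2 fold change 0.29 ± 0.067, edgeR adjusted p 0.00205) with TMM factors and had 0.01 with trended offsets. All elements in these paragraphs were chosen after their values were seen.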
